A study of Homo sapiens with 9 samples.

Results

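SERPINI1, ACKR3 (formerly CXCR7), BCHE, FGF13, GPNMB and FN1 are 6 of 12165 genes measured in LNCaP cells, and they are a chosen list among a larger number of genes that were lower in androgen-treated than in vehicle-treated cells and higher again when celastrol was added. They were chosen by that pattern on the same arrays, so their levels in the 3 groups are a description and carry no test. They were read by 11 of the 19724 probe sets that are annotated to a single gene. LNCaP is a cell line from a lymph node metastasis of a prostate cancer, and it grows in response to androgen. The cells were kept for 2 days in medium with charcoal-stripped serum, which is poor in steroids, before treatment. RNA was then measured on Affymetrix arrays in 3 groups of 3 arrays. The androgen plus celastrol cells received 1 nM R1881, a synthetic androgen, together with 1.25 µM celastrol, a plant triterpenoid. The androgen cells received 1 nM R1881 and DMSO, and the vehicle cells received ethanol and DMSO, the solvents of both agents. All 3 groups are labelled as 24 h of treatment, except that the titles of the androgen arrays give 6 h while their descriptions give 24 h. A difference in treatment time and the treatment itself cannot be told apart in comparisons with the androgen arrays if those titles are right. All arrays come from 1 cell line, whose replicates the titles call biological, and no array of celastrol alone was analysed here.

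The androgen receptor is a nuclear receptor that, once bound by androgen, raises the transcription of secretory genes of the prostate epithelium and lowers that of another set of genes in the same cells. The 6 genes encode proteins of different kinds. Fibronectin (FN1), neuroserpin (SERPINI1) and butyrylcholinesterase (BCHE) are secreted, ACKR3 and GPNMB are membrane proteins, and FGF13 stays inside the cell.

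The arrays carried the profile of prostate luminal cells. Of 11 luminal and LNCaP markers 9 were measured, and each lay between the 87.3 and the 99.7 percentile of genes by mean intensity. None of the 3 basal, 7 fibroblast, 7 macrophage and 5 endothelial markers measured was above the median gene. Array medians ran between 72.21 and 80.17 intensity units. Vehicle replicate 3 stood apart, with an SD of its deviations from the group means of 0.308 on the log2 scale, against at most 0.201 in the other arrays. Its upper quartile of intensity was 332.5, against 377.4 to 408.7 in the other arrays.

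In all 6 genes the 3 androgen plus celastrol arrays lay above the 3 androgen arrays, a pattern found in 20.4% of all genes. In all 6 the 3 androgen arrays lay below the 3 vehicle arrays, as did 14.2% of all genes. Both counts follow from how the genes were chosen, and nothing is read from them. The androgen arrays enter both comparisons, so the values of each gene are set side by side without a measure of their relation. The comparison of androgen plus celastrol with vehicle is the sum of these and is likewise described without a test. In it FGF13 and GPNMB were higher with androgen plus celastrol in all 3 arrays (20.1% of all genes) and the other 4 genes were lower in all 3 (17.1% of all genes). All values below are linear intensities made by the robust multi-array average (RMA), and each log2 difference is given with the standard error (SE) of a model over all genes.

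**Figure D1:**
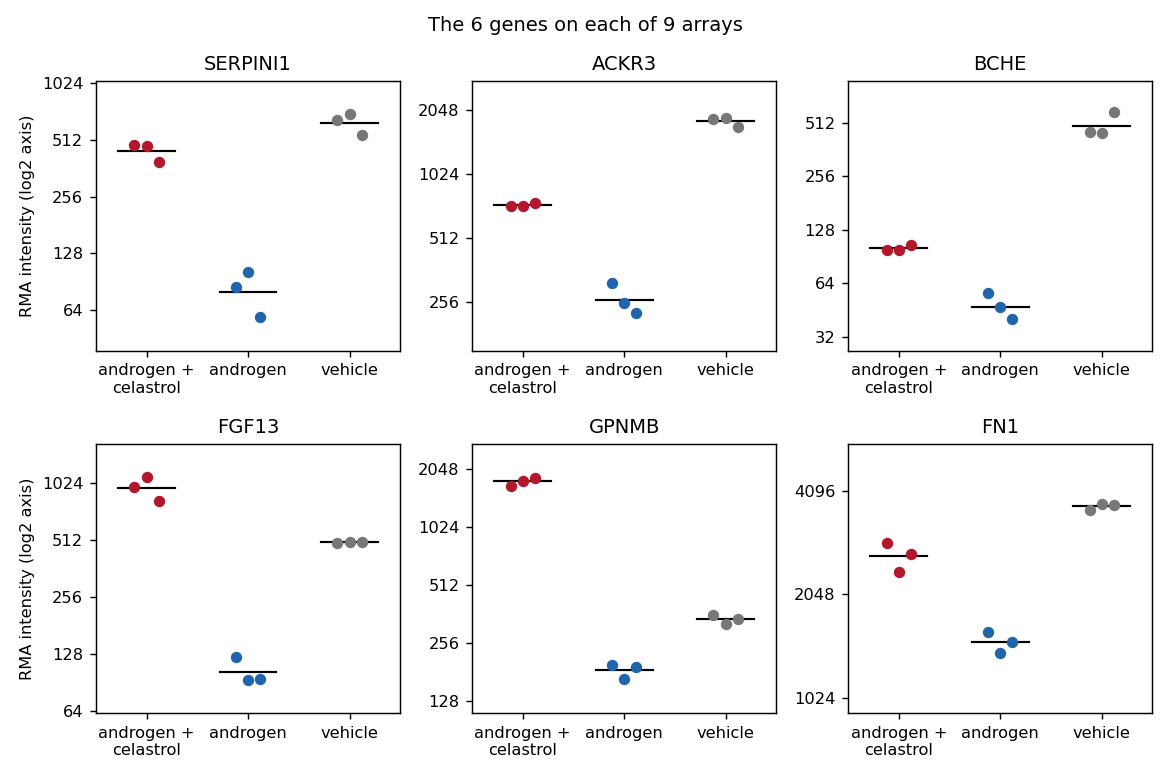
Intensity of the 6 genes on a log2 axis in the androgen plus celastrol, androgen and vehicle arrays, 1 point per array, with a line at each group's mean of log2 values. The androgen arrays are lowest in every gene, the vehicle arrays highest in SERPINI1, ACKR3, BCHE and FN1, and the androgen plus celastrol arrays highest in FGF13 and GPNMB.

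Of the secreted proteins, neuroserpin is an inhibitor of serine proteases that acts on tissue plasminogen activator and is best known from neurons. SERPINI1 (probe set 205352_at) had intensities of 477.9, 473.7 and 392 with androgen plus celastrol, 85.37, 102 and 58.69 with androgen, and 653.5, 698.3 and 544.2 with vehicle. The 3 groups did not overlap, and the androgen plus celastrol arrays came close to the vehicle arrays. The androgen plus celastrol mean of 447.9 ± 48.4 was 5.58-fold the androgen mean of 82.03 ± 21.9 on the log2 average, a log2 difference of 2.48 ± 0.20, and the vehicle mean was 632 ± 79.3 (SD, n = 3 each). Androgen against vehicle gave −2.97 ± 0.20, and androgen plus celastrol against vehicle −0.49 ± 0.20. The gene lies on chromosome 3, bases 167735721 to 167825569 of GRCh38.p14, on the plus strand.

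The plasminogen system and other serpins, 17 measured of 20 listed, were mostly not called. With androgen plus celastrol against androgen 1 gene was higher and 0 lower at an adjusted p under 0.05 (limma with Benjamini-Hochberg adjustment over all 12165 genes), where 9% of all genes were higher and 7.24% lower. The list's median log2 difference was 0.043, beside 0.022 for all genes. The gene that rose was SERPINB8, an intracellular inhibitor of furin, with 179.9, 175 and 172.1 with androgen plus celastrol against 60.32, 51.13 and 52.16 with androgen (1.69 ± 0.10, adjusted p = 2.38e-05). Unlike SERPINI1 it had 49.98, 52.63 and 44.11 with vehicle, close to the androgen arrays. SERPINE2, another inhibitor of plasminogen activators, was the 1 gene called with androgen against vehicle and was higher (0.46 ± 0.08, adjusted p = 0.00571), where 7.17% of all genes were higher and 5.84% lower. Neither plasminogen activator passed the test: PLAT had a log2 difference of −0.03 and PLAU of 0.16 with androgen plus celastrol against androgen, both from probe sets below the 25 percentile of genes. SERPINI2, the other serpin of the same clade and a neighbour on the chromosome, was at the 5.2 percentile with a difference of −0.07 ± 0.12.

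Butyrylcholinesterase is a serum esterase that hydrolyses choline esters and is made mainly in the liver. BCHE (205433_at) had intensities of 98.62, 99.05 and 105.3 with androgen plus celastrol, 56.02, 46.88 and 39.93 with androgen, and 454.3, 449.9 and 588.7 with vehicle. Its vehicle arrays stood far above both other groups, and the rise with celastrol covered a small part of that gap. The means were 101 ± 3.72 with androgen plus celastrol, 47.61 ± 8.07 with androgen and 497.6 ± 78.9 with vehicle (SD, n = 3 each). The log2 difference of androgen plus celastrol against androgen was 1.10 ± 0.15, that of androgen against vehicle −3.39 ± 0.15, and that of androgen plus celastrol against vehicle −2.29 ± 0.15. Only 1 of the 12165 genes had a lower value than BCHE for androgen against vehicle. The gene lies on the minus strand of chromosome 3, bases 165772904 to 165837423. Of 16 cholinergic and esterase genes measured of 22 listed, 0 passed the limma test in any of the 3 comparisons. Of all genes 16.2% passed with androgen plus celastrol against androgen, 13% with androgen against vehicle and 23.3% with androgen plus celastrol against vehicle. At most 2 of the 16 listed genes in 1 direction had an unadjusted p under 0.05. In addition 10 of them had mean intensities below the 25 percentile of genes.

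Fibronectin is a large glycoprotein of the extracellular matrix to which cells attach through integrins. It was read by 6 probe sets. On the brightest, 211719_x_at, intensities were 2884, 2380 and 2680 with androgen plus celastrol, 1589, 1386 and 1486 with androgen, and 3609, 3735 and 3723 with vehicle. Each group kept to its own range, and androgen plus celastrol lay between the other groups. The means were 2648 ± 253 with androgen plus celastrol, 1487 ± 101 with androgen and 3689 ± 69.4 with vehicle (SD, n = 3 each). The log2 differences were 0.83 ± 0.09 for androgen plus celastrol against androgen, −1.31 ± 0.09 for androgen against vehicle and −0.48 ± 0.09 for androgen plus celastrol against vehicle. The 3 other bright probe sets, 210495_x_at, 216442_x_at and 212464_s_at, gave 0.81, 0.89 and 0.88 for androgen plus celastrol against androgen and −1.39, −1.33 and −1.50 for androgen against vehicle. The dimmer probe set 214701_s_at, at the 50.4 percentile of probe sets, gave 0.48 and −0.47 in these comparisons. It had 77.08, 74.28 and 111.5 with androgen plus celastrol, 55.54, 57.38 and 73.75 with androgen, and 86.63, 95.08 and 76.55 with vehicle. There the androgen plus celastrol and vehicle arrays overlapped. On the dimmest, 214702_at, at the 12.1 percentile of probe sets, the 3 groups overlapped, with means of 30.5 for androgen plus celastrol, 27.95 for androgen and 32.92 for vehicle. The _x_at sets can bind several transcripts by design, and all 4 bright sets read the same gene in the same RNA. The 4 are therefore not independent readings.

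**Figure D2:**
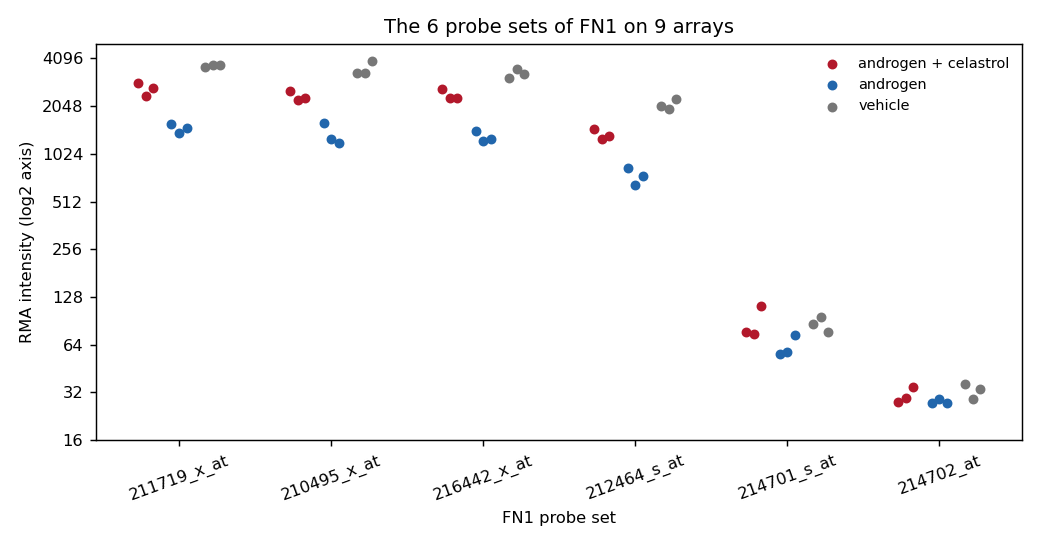
Intensity on a log2 axis of the 6 FN1 probe sets in the androgen plus celastrol, androgen and vehicle arrays, 1 point per array. The 4 bright probe sets share one pattern, with androgen lowest, while on 214702_at the groups overlap.

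The summed intensity of the 7 fibroblast markers ran from 300.8 to 325.6 with androgen plus celastrol, from 278.6 to 300.1 with androgen and from 318.9 to 387.9 with vehicle. The androgen plus celastrol and vehicle sums overlapped, unlike those groups on the brightest FN1 probe set. None of these markers was above the 40.3 percentile of genes, and their part in the FN1 values was not tested. In such bulk RNA fewer cells of a type and less RNA per cell cannot be told apart. FN1 lies on the minus strand of chromosome 2, bases 215360865 to 215436068.

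Among 16 fibronectin receptors and other surface partners, 2 were higher (12.5%, beside 9% of all genes) and 0 lower with androgen plus celastrol against androgen, with a median log2 difference of −0.06 beside 0.022 for all genes. SDC2, a syndecan that carries heparan sulfate, had 541.3, 584.2 and 528.2 with androgen plus celastrol, 324.4, 286.7 and 332.6 with androgen, and 587.7, 547.7 and 516.6 with vehicle. Its androgen arrays lay below both other groups, which overlapped. It was higher with androgen plus celastrol against androgen (0.81 ± 0.09, adjusted p = 0.000528) and lower with androgen against vehicle (−0.81 ± 0.09, adjusted p = 0.000432). ITGA5, the integrin subunit that forms the main fibronectin receptor with ITGB1, was higher with androgen plus celastrol against androgen (0.51 ± 0.14, adjusted p = 0.0374), a call lost in 12 of 17 other settings. ITGB1 itself did not pass the test (−0.24 ± 0.09, adjusted p = 0.111). With androgen against vehicle ITGAV, the alpha subunit of several fibronectin and vitronectin receptors, was the 1 gene that rose (1.18 ± 0.07, adjusted p = 1.4e-05), opposite to FN1. SDC4, another syndecan, was lower (−1.49 ± 0.35, adjusted p = 0.0216), but this call was lost in 5 of 18 other settings, without any 1 of the androgen arrays or without vehicle replicate 1 or 2 (adjusted p up to 0.0826).

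The wider list of matrix and mesenchymal genes had 29 measured of 30, of which 12 lay below the 25 percentile of genes by mean intensity. Most were not called, 25 with androgen plus celastrol against androgen and 23 with androgen against vehicle. The calls in these 2 comparisons ran mostly opposite to FN1. With androgen plus celastrol against androgen 0 were higher and 4 lower (13.8%, beside 7.24% of all genes). With androgen against vehicle 5 were higher (17.2%, beside 7.17% of all genes) and 1 lower, COL6A1, named after its value was seen (−0.36 ± 0.09, adjusted p = 0.0273, lost in 9 of 18 other settings, among them those without any 1 androgen or vehicle array, with adjusted p up to 0.417). SNAI2, a transcription factor of epithelial to mesenchymal transition, had 247.2, 280.5 and 310.5 with androgen plus celastrol, 706.3, 691.5 and 675.7 with androgen, and 48.48, 47.34 and 27.56 with vehicle. The androgen arrays were the highest in this gene and the vehicle arrays the lowest. It was higher with androgen against vehicle (4.12 ± 0.20) and lower with androgen plus celastrol against androgen (−1.31 ± 0.20, adjusted p = 0.0027). TWIST1, another such factor, rose with androgen by 1.17 ± 0.11 (adjusted p = 0.000162) and fell with celastrol on top of it (−0.72 ± 0.11, adjusted p = 0.00274). The smooth muscle actin gene ACTA2 and the basement membrane collagen gene COL4A5 were the other genes lower with androgen plus celastrol against androgen (−0.76 ± 0.15 and −0.68 ± 0.14, adjusted p = 0.00808 and 0.0126), and the call of COL4A5 was lost without androgen plus celastrol replicate 2 or androgen replicate 3 (adjusted p up to 0.0528). The laminin chain gene LAMC1 was higher with androgen against vehicle (1.56 ± 0.12, adjusted p = 3.95e-05) and, with −0.30 ± 0.12, did not pass the test with androgen plus celastrol against androgen (adjusted p = 0.138). Against vehicle 4 of the 29 were higher and 4 lower with androgen plus celastrol (13.8% each, beside 13.3% and 10% of all genes). Of the fibroblast markers, not in this list, COL1A1 rose with androgen plus celastrol against androgen (0.42 ± 0.12, limma adjusted p = 0.0446). COL3A1 fell with androgen against vehicle (−0.43 ± 0.10, adjusted p = 0.0175). No other fibroblast marker was called in these 2 comparisons.

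Of the membrane proteins, ACKR3 is an atypical chemokine receptor that binds CXCL12 and CXCL11, recruits arrestin rather than G proteins and clears its ligands from the cell surface. ACKR3 (212977_at) had intensities of 727.3, 727.3 and 751.3 with androgen plus celastrol, 317.1, 253.3 and 227.4 with androgen, and 1877, 1878 and 1703 with vehicle. The groups did not overlap, and androgen plus celastrol lay between the others. The means were 735.3 ± 13.8 with androgen plus celastrol, 265.9 ± 46.2 with androgen and 1819 ± 101 with vehicle (SD, n = 3 each). The log2 difference was 1.48 ± 0.12 for androgen plus celastrol against androgen, −2.79 ± 0.12 for androgen against vehicle and −1.31 ± 0.12 for androgen plus celastrol against vehicle. The gene lies on chromosome 2, bases 236537122 to 236582354.

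Of 15 genes of the ACKR3 chemokine axis, ligands and receptors, 14 were measured, and ADM alone passed the test, in each comparison (7.14%). Of all genes 16.2% passed with androgen plus celastrol against androgen, 13% with androgen against vehicle and 23.3% with androgen plus celastrol against vehicle. ADM encodes adrenomedullin, a vasoactive peptide that ACKR3 is known to clear. It had 182.4, 239.8 and 206.8 with androgen plus celastrol, 53.68, 58.97 and 63.25 with androgen, and 160.2, 154.3 and 137.3 with vehicle. Its androgen arrays were the lowest, and its androgen plus celastrol arrays lay above all vehicle arrays. The log2 difference was 1.83 ± 0.12 for androgen plus celastrol against androgen (adjusted p = 3.96e-05), −1.36 ± 0.12 for androgen against vehicle (adjusted p = 0.000105) and 0.47 ± 0.12 for androgen plus celastrol against vehicle (adjusted p = 0.0203, lost in 4 of 18 other settings). CXCL12, the main ligand, was at the 22.1 percentile of genes with a difference of 0.11 ± 0.11 for androgen plus celastrol against androgen. CXCR4, the signalling receptor for the same ligand, was at the 29.7 percentile, with −0.28 ± 0.14 in that comparison (adjusted p = 0.249) and 0.47 ± 0.14 for androgen against vehicle (adjusted p = 0.0621).

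GPNMB is a glycoprotein of melanosomes and lysosomes, abundant in macrophages and melanocytes, whose gene is known as a target of the MiT transcription factors MITF and TFE3. GPNMB (201141_at) had intensities of 1669, 1782 and 1847 with androgen plus celastrol, 196.2, 165.9 and 193.6 with androgen, and 357.5, 323.2 and 342.8 with vehicle. The androgen plus celastrol arrays stood far above both other groups, and the androgen arrays lay below the vehicle arrays without overlap. The means were 1766 ± 90.2 with androgen plus celastrol, 185.2 ± 16.8 with androgen and 341.2 ± 17.2 with vehicle (SD, n = 3 each). The log2 difference was 3.26 ± 0.09 for androgen plus celastrol against androgen, a 9.55-fold difference, −0.88 ± 0.09 for androgen against vehicle and 2.37 ± 0.09 for androgen plus celastrol against vehicle. Of the 6 genes GPNMB had the smallest fall with androgen, at rank 183 among all genes, and the largest value with celastrol, at rank 6. The summed intensity of the 7 macrophage markers ran from 296 to 305.9 with androgen plus celastrol, from 287.6 to 296.6 with androgen and from 296.6 to 321.5 with vehicle, and none was above the 38.9 percentile of genes. Their part in the GPNMB values was not tested. GPNMB lies on the plus strand of chromosome 7, bases 23246775 to 23275108.

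The promoter of GPNMB is shown because its 250 bases before the annotated start hold the letters of a MiT factor motif, TCACATGA, and of an AP-1 motif, TGAGTCA, both in capitals. The sequence is from RefSeq, chr7:23246525-23246774 of GRCh38.p14, plus strand.
GPNMB: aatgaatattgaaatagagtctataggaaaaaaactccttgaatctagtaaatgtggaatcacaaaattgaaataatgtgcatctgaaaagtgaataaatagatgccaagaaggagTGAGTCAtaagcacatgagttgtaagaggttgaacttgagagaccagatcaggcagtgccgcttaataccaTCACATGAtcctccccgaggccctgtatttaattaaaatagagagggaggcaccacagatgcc
The MiT letters lie 63 bases and the AP-1 letters 134 bases before the start. On either strand, TCACATGA was found in 0.851% and TGANTCA, with any base at N, in 6.57% of 35116 promoters of the same length. A match is a description of letters and not of a bound site.

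Of 47 listed genes of the MiT factors and the lysosome, 43 were measured. Of these 23 (53.5%, beside 9% of all genes) were higher, 0 lower and 20 not called with androgen plus celastrol against androgen, with a median log2 difference of 0.435 beside 0.022 for all genes. Against vehicle 21 were higher and 3 lower with androgen plus celastrol, with a median of 0.449 beside −0.013, where 13.3% of all genes were higher and 10% lower. With androgen against vehicle 2 were higher and 5 lower, with a median of −0.064 beside −0.04. The count of 23 ranged from 18 to 25 over 18 other settings. The count of 5 ranged from 1 to 9, with 1 under the replicate block fitted on only the 2 groups compared. The list is bright, as 4 of its 43 genes lay below the 25 percentile of genes by mean intensity. The 9% is over all genes, dim ones included. With dim genes left out, 1275 of 6082 genes were higher with androgen plus celastrol against androgen. The count of 21 was 8 under the replicate block fitted on only the 2 groups compared. Of these 21, the block on all arrays lost the calls of NEU1 and ATP6V1B2. The count of 21 includes TPP1, of which another probe set was lower (−0.42). The 5 lower genes included TPP1, a lysosomal peptidase, at −0.51 ± 0.10 (adjusted p = 0.00764). The 2 higher genes were NPC1 and ATP6V1D, a subunit of the proton pump that acidifies lysosomes (0.45 ± 0.09, adjusted p = 0.00818).

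The highest values with androgen plus celastrol against androgen were those of GLA, CTSD, CTSA and TPP1, enzymes and an enzyme chaperone of the lysosome. GLA, alpha-galactosidase, had 1032, 975.2 and 976 with androgen plus celastrol, 399.8, 359.4 and 324.4 with androgen, and 426.7, 391.9 and 324.1 with vehicle. Its androgen and vehicle arrays overlapped, unlike those of GPNMB (1.47 ± 0.12 for androgen plus celastrol against androgen, adjusted p = 0.000105). The protease CTSD gave 1.26 ± 0.13 (adjusted p = 0.000348), the protective protein CTSA 1.19 ± 0.15 (adjusted p = 0.000878) and TPP1 1.07 ± 0.10 (adjusted p = 0.000175). Of the transcription factors, TFE3 was higher (0.80 ± 0.17, adjusted p = 0.0124, lost in 3 of 18 other settings), while MITF with 0.30 ± 0.15 (adjusted p = 0.234) and TFEB with −0.06 ± 0.27 (adjusted p = 0.917) did not pass the test. The cholesterol transporter NPC1 was higher with androgen plus celastrol against androgen (0.75 ± 0.12, adjusted p = 0.0028) and also with androgen against vehicle (0.94 ± 0.12, adjusted p = 0.000749), opposite to GPNMB.

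**Figure D3:**
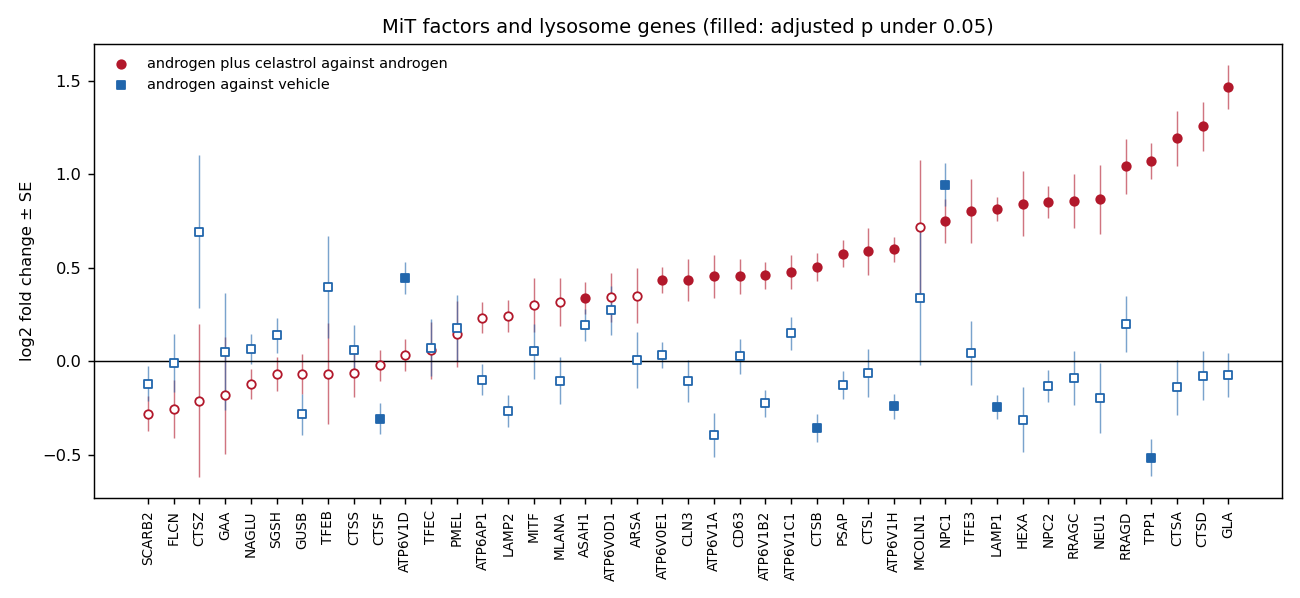
Log2 fold change with its SE of the 43 measured MiT and lysosome genes for androgen plus celastrol against androgen (circles) and androgen against vehicle (squares), filled where the adjusted p is under 0.05. The filled circles, 23 genes, all lie above 0, where the median of the circles is 0.435 and that of the squares −0.064.

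FGF13 is a fibroblast growth factor homologous factor, which is not secreted and binds voltage-gated sodium channels and microtubules. FGF13 (205110_s_at) had intensities of 981.7, 1104 and 824.5 with androgen plus celastrol, 123.5, 92.85 and 93.77 with androgen, and 492.9, 501.9 and 501.9 with vehicle. The androgen plus celastrol arrays exceeded every vehicle array, and the androgen arrays lay below both. The means were 970 ± 140 with androgen plus celastrol, 103.4 ± 17.4 with androgen and 498.9 ± 5.22 with vehicle (SD, n = 3 each). The log2 difference was 3.23 ± 0.14 for androgen plus celastrol against androgen, a 9.4-fold difference at rank 7 among all genes, −2.28 ± 0.14 for androgen against vehicle and 0.95 ± 0.14 for androgen plus celastrol against vehicle. The gene lies on the minus strand of chromosome X, bases 138614727 to 139205023. Of 23 listed FGF homologous factors, sodium channel and FGF signalling genes, 20 were measured. FGFR3, a receptor for secreted FGFs, was the 1 gene called with androgen plus celastrol against androgen and ran opposite to FGF13 (−1.14 ± 0.27, adjusted p = 0.02, lost in 5 of 18 other settings). It was also the 1 gene called with androgen against vehicle (1.46 ± 0.27, adjusted p = 0.00642). Of all genes 16.2% were called with androgen plus celastrol against androgen and 13% with androgen against vehicle. The other homologous factors FGF12 and FGF14 lay below the 25 percentile of genes, with 0.11 ± 0.13 and −0.08 ± 0.17 for androgen plus celastrol against androgen.

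**Figure D4:**
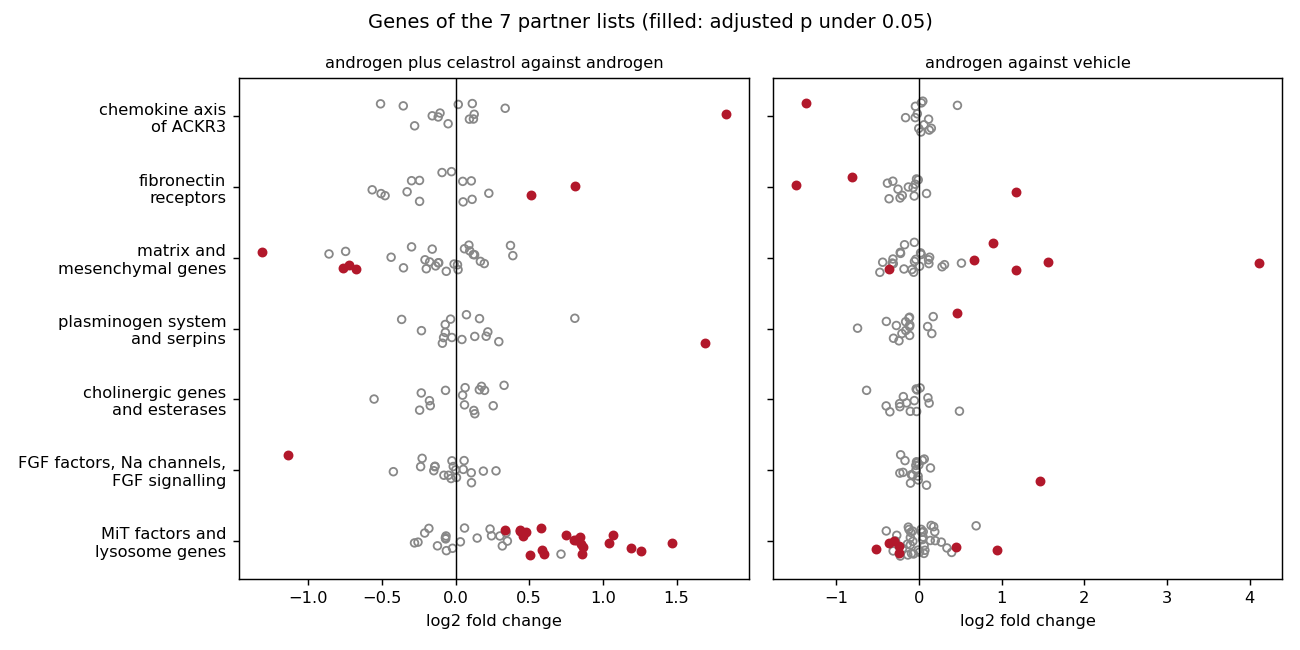
Log2 fold change of each measured gene of the 7 lists, 1 point per gene with lists on the vertical axis, for androgen plus celastrol against androgen (left) and androgen against vehicle (right), filled where the adjusted p is under 0.05. The MiT and lysosome list has 23 filled points above 0 on the left, and the other 6 lists have at most 2 each. Of the MiT and lysosome list 4 of 43 genes lay below the 25 percentile by mean intensity, beside 58 of 155 over all 7 lists.

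Over all 7 lists, 155 genes measured of 173, 27 were higher and 5 lower with androgen plus celastrol against androgen (17.4% and 3.23%, beside 9% and 7.24% of all genes). With androgen against vehicle 10 were higher and 9 lower (6.45% and 5.81%), near the 7.17% and 5.84% of all genes. With androgen plus celastrol against vehicle 29 were higher and 10 lower (18.7% and 6.45%, beside 13.3% and 10%). With the replicate number as a block on only the 2 groups compared, the count of 9 lower with androgen against vehicle was 4. Of these 9, the block on all arrays lost the calls of CTSF, LAMP1 and ATP6V1H. Leaving out 1 array at a time gave 3 to 13 for the count of 9. For the 5 lower with androgen plus celastrol against androgen it gave 3 to 11, where 11 came without vehicle replicate 3.

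How far celastrol took each gene back can be given as the share of the log2 fall with androgen that androgen plus celastrol regained, where 100% is the vehicle level. GPNMB regained 368% and FGF13 142%, both past the vehicle level. SERPINI1 regained 83.4%, FN1 63.2%, ACKR3 53.2% and BCHE 32.4%. Without each array in turn the shares ran from 353 to 394% for GPNMB, 137 to 146% for FGF13, 80.5 to 86.5% for SERPINI1, 58.4 to 68.9% for FN1, 51.3 to 55.3% for ACKR3 and 29.9 to 34.8% for BCHE. These ranges show the weight of single arrays and do not establish an order of the genes. Over the FN1 probe sets the share ran from 52 to 101%, which spans the values of ACKR3 and SERPINI1. On the linear scale the shares were 1010, 219, 66.5, 52.7, 30.2 and 11.9% in the same order of genes. The large share of GPNMB stands on the small fall it is divided by.

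**Figure D5:**
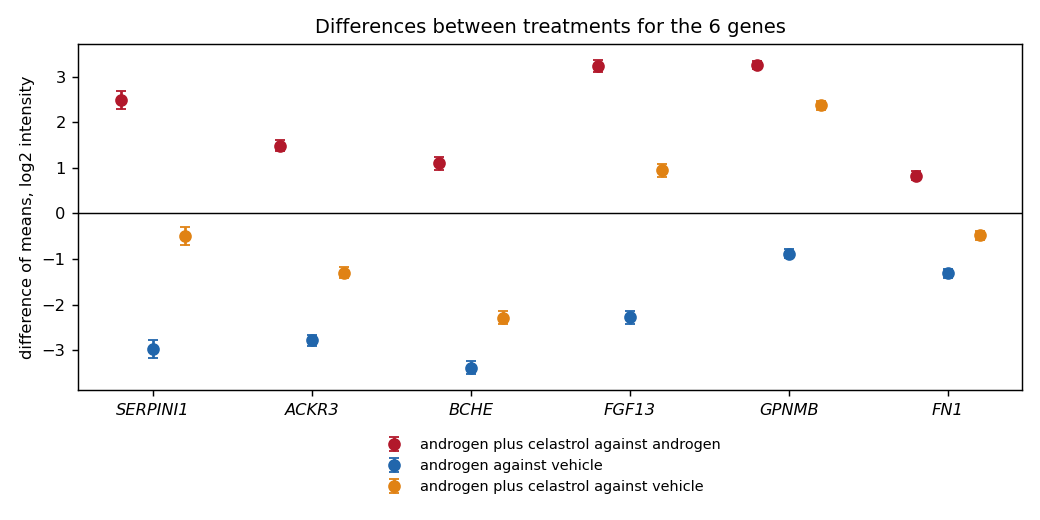
Log2 difference with its SE for the 6 genes in the 3 comparisons. All 6 lie above 0 for androgen plus celastrol against androgen and below 0 for androgen against vehicle, and FGF13 and GPNMB lie above 0 for androgen plus celastrol against vehicle.

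All but GPNMB, 5 of the 6 genes, belong to 139 genes at least 1 log2 unit lower with androgen than with vehicle. Just outside that limit was GPNMB at −0.88, and just inside among the 6 genes was FN1 at −1.31. Ordered by androgen plus celastrol against androgen, FGF13 ranked 1, SERPINI1 2, ACKR3 12, BCHE 20 and FN1 31 of the 139. The other 134 genes had a median of 0.226, with quartiles of −0.024 and 0.66 and a range of −0.946 to 2.381. Of these 134, 49 were higher and 12 lower with androgen plus celastrol against androgen at an adjusted p under 0.05 (36.6% and 8.96%, beside 9% and 7.24% of all genes), and 36 regained more than 50% of the fall. The androgen arrays both chose these genes and entered the second comparison, so ranks and counts are a description.

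The 6 genes lie on 4 chromosomes. SERPINI1 and BCHE are both on chromosome 3 and ACKR3 and FN1 both on chromosome 2, and SERPINI2 lies between SERPINI1 and BCHE. Of the 23 measured genes flanking them, the nearest 2 on each side, 2 were higher and 2 lower (8.7% each, beside 9% and 7.24% of all genes) with androgen plus celastrol against androgen. With androgen against vehicle 0 were higher, or 2 at an unadjusted p under 0.05 (limma), and 6 lower (26.1%, beside 5.84% of all genes). With dim genes left out, 2 of the neighbours that remained were lower, beside 859 of all 6082 remaining genes. PDCD10, which starts 829 bases from SERPINI1 on the other strand, had 3276, 3482 and 3237 with androgen plus celastrol, 2731, 2715 and 2663 with androgen, and 2394, 2425 and 2192 with vehicle. Unlike SERPINI1 it was lowest with vehicle, and its rise with androgen plus celastrol against androgen (0.30 ± 0.08, adjusted p = 0.0259) was lost in 8 of 18 other settings. ABCA12, a lipid transporter gene 222.2 kb from FN1, had 74.5, 87.2 and 74.7 with androgen plus celastrol, 45.9, 43.8 and 50.7 with androgen, and 131.7, 110.6 and 109.3 with vehicle. It had the same order of groups as FN1 (0.75 ± 0.11 for androgen plus celastrol against androgen, adjusted p = 0.002, and −1.32 ± 0.11 for androgen against vehicle, adjusted p = 7.21e-05). RBMX and TRA2A, both RNA-binding splicing factors, were lower with androgen plus celastrol against androgen (−0.72 ± 0.08, adjusted p = 0.000388, and −0.64 ± 0.08, adjusted p = 0.00121), and the call of TRA2A was lost with the mean of its probe sets (adjusted p = 0.694). The sucrase-isomaltase gene SI and SLITRK3 lie 682.7 and 575.8 kb from BCHE, at the 24.5 and 32.9 percentiles of genes by mean intensity. Both fell with androgen against vehicle (−1.23 ± 0.17 and −1.08 ± 0.17, adjusted p = 0.00146 and 0.00274), and their androgen plus celastrol and androgen arrays overlapped. MECOM lies 1257.9 kb from SERPINI1 and was at the 7.78 percentile. ATIC overlaps FN1 in position, and MREG lies 503.2 kb from FN1. MECOM, ATIC and MREG fell as well, by 0.85, 0.47 and 0.69 on the log2 scale (adjusted p = 0.000555, 0.00224 and 0.0169), and the call of MREG was lost in 4 of 17 other settings. None of these 5 genes passed the test with androgen plus celastrol against androgen. With androgen plus celastrol against vehicle 2 neighbours were higher (8.7%, beside 13.3% of all genes) and 8 lower (34.8%, beside 10%). With dim genes left out 3 neighbours were lower, beside 1300 of all 6082 remaining genes. The 2 higher neighbours were PDCD10 and KLHL7 near GPNMB (0.51 ± 0.08 and 1.44 ± 0.32, adjusted p = 0.00125 and 0.0107), each lost in 1 of 18 other settings. The directly adjacent measured genes GOLIM4, DRC11, COPS8, ZBBX, F9, NUP42 and IGF2BP3 passed the test neither with androgen plus celastrol against androgen nor with androgen against vehicle.

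The promoters of BCHE and FN1 are shown because each held 1 of the motifs searched, in capitals, while that of SERPINI1 held none. Both are the 250 bases before the start from RefSeq on the minus strand of GRCh38.p14, BCHE at chr3:165837424-165837673 and FN1 at chr2:215436069-215436318.
BCHE: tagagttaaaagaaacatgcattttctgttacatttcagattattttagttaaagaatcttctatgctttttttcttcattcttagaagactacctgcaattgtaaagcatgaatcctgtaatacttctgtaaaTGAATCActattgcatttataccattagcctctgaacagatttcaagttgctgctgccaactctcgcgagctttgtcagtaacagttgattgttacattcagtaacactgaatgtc
FN1: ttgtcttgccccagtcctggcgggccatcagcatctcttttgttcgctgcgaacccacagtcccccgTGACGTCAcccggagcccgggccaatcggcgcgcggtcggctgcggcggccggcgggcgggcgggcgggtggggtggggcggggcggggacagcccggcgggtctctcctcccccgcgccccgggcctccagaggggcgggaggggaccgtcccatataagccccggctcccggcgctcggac
BCHE had TGAATCA 116 bases before its start, which matches the searched TGANTCA but differs in its middle base from the TGAGTCA of GPNMB. FN1 had the cyclic AMP response letters TGACGTCA at 183 bases, which 1.65% of all promoters held. Of 2 annotated starts of FGF13, 1 had TGAATCA and the androgen receptor hexamer AGAACA, a motif of 12.4% of all promoters, and the other had none. The full androgen receptor element was in none of these windows and in 0.00285% of all promoters. The E-box CACGTG, which MiT factors also bind, was in none of them and in 6.34% of all promoters.

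Genes most alike in profile were taken by Pearson correlation of log2 values over the 9 arrays, among 842 genes whose group means spanned at least 1 log2 unit. The mean profile of the 6 genes was closest to that of SQOR (r = 0.994), a mitochondrial sulfide oxidising enzyme, TMEM38B (0.994), ATP2B1, a plasma membrane calcium pump (0.985), and ST3GAL1, a sialyltransferase (0.978). INSIG2, a sterol sensor of the endoplasmic reticulum, and COBLL1 followed at 0.978, and TMEM140 and ASAP2 at 0.975. The closest to SERPINI1 were SQOR (0.993), ATP2B1 (0.985) and TMEM38B (0.978). The closest to ACKR3 were MACIR (0.996), CTBP1 (0.995) and NUP93 (0.995), and to BCHE SEMA6A (0.996), PRKD1 (0.994) and MAPRE2 (0.991). FGF13 was most like BAMBI (0.985), ADM (0.98) and TNFRSF21 (0.979). GPNMB was most like SQSTM1, an autophagy receptor (0.994), IFRD1 (0.993) and KLHL21 (0.991), and FN1 most like DCUN1D1 (0.997), NFAT5 (0.987) and ASAP2 (0.986). The 9 arrays fall into 3 groups that these correlations largely reflect, so they are a description with no p.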

How the data were processed

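RNA of LNCaP cells was measured on 9 Affymetrix arrays, 3 per group. The deposited values are RMA intensities on a linear scale, per the submitters' processing notes and the values; the version of RMA was not given in the sources used here. They were taken as log2 with a pseudocount of 0. Of 22215 probe sets, 19724 were annotated to 1 gene, 568 to several and 1923 to none, and each of 12165 genes was read from its probe set of highest mean intensity. limma 3.58.1 in R 4.3.3 (lmFit and eBayes, all 9 arrays, 6 residual and 2.7 prior degrees of freedom) compared the groups, with Benjamini-Hochberg adjustment over all genes and a threshold of 0.05. The median SE of a log2 difference was 0.129; the number of arrays limits the precision. The script was tested on simulated data.

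The 6 genes and the lists were chosen with earlier results of these data known. Named genes are the 6 themselves; per list up to 4 past the threshold with androgen plus celastrol against androgen, up to 3 with androgen against vehicle, by size, up to 2 that did not pass, and 10 partners by role; neighbours that passed and the nearest on each side; and the 3 most alike genes per gene and 8 for the mean profile. Replicate numbers come from the titles. Deviations from the group means correlated at 0.399, 0.371 and 0.629 between same-numbered androgen and vehicle arrays, so a fit with that block was made, and at −0.09, 0.213 and −0.186 between androgen plus celastrol and androgen arrays. Androgen 1 with vehicle 2 gave 0.408 and androgen 2 with vehicle 1 gave 0.301. Androgen and vehicle pairs of replicate 3 with another number gave −0.566 to −0.395. The values thus show replicate 3 apart in both groups more than a pairing by number. Alternatives were another summary of probe sets, scaling, a pseudocount of 16, a filter on dim probe sets, an intensity trend, the block, only the 2 groups compared, and leaving out each array. Promoters, gene positions and motifs come from RefSeq (GRCh38.p14); the promoter table was matched for 5 of the 6 genes.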

Additional observations from a re-analysis of the deposited data

How the results depend on the processing

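Under 18 alternatives none of 408 recomputed differences and shares of the 6 genes reversed, and 9 moved by more than the spread between replicates. These were ACKR3 for androgen plus celastrol against vehicle (−1.40) and GPNMB in the same comparison (2.28) after quantile normalization, BCHE for androgen against vehicle with a pseudocount of 16 (−3.01), FN1 with the mean of its probe sets (0.67 for androgen plus celastrol against androgen and −1.04 for androgen against vehicle), and the regained share of GPNMB (402% with array medians subtracted, 342% after quantile normalization, 353 to 394% leaving out 1 array at a time). The causes were not tested, except that the FN1 mean includes the 2 dimmer probe sets. Of 216 counts of called genes 42 moved by over 1.5 times. Among the list genes, those lower with androgen against vehicle were 9 of 155, and they were 4 with array medians subtracted, 14 after quantile normalization, 4 with the replicate block (fitted on the groups compared) and 3 to 13 leaving out 1 array; those lower with androgen plus celastrol against androgen were 5, and 8 with the mean of probe sets, 9 without dim probe sets, 8 with an intensity trend and 3 to 11 leaving out 1 array; with androgen plus celastrol against vehicle the 29 higher were 14 with the replicate block, and the 10 lower were 6 with medians subtracted, 5 with only those groups, 3 with the block and 4 to 9 leaving out 1 array. Among the 23 neighbours, those higher with androgen against vehicle were 0, and 1 with the mean of probe sets, 2 with medians subtracted, without dim probe sets or with a trend, 1 with the block and 0 to 1 leaving out 1 array, and the 6 lower were 2 without dim probe sets. With androgen plus celastrol against androgen their 2 higher were 1 after quantile normalization, without dim probe sets or with the block, and 1 to 3 leaving out 1 array, and their 2 lower were 1 with the mean of probe sets. With androgen plus celastrol against vehicle their 2 higher were 0 with the block, and their 8 lower were 3 without dim probe sets and 5 with the block. Of 110 calls of single list and neighbouring genes, 59 held in every alternative. Over all genes the split for androgen against vehicle was 872 higher and 711 lower, 1182 and 529 with medians subtracted, and 885 and 973 after quantile normalization.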

Other observations

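The E-box CACGTG was in 11 of the 27 promoters matched for the lysosome and MiT list and in 6.34% of all 35116 promoters, and TCACATGA was in 2 of the 27, those of CD63 and TPP1. SERPINB5, the gene of maspin, had intensities of 52.81, 69.7 and 73.26 with androgen plus celastrol, 51.18, 28.34 and 34.56 with androgen, and 74.32, 69.43 and 45.34 with vehicle, and its log2 difference of 0.81 ± 0.26 for androgen plus celastrol against androgen did not pass the test (limma, adjusted p = 0.0679).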
